A study of Mus musculus with 6 samples.

Results

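Leukocyte adhesion molecules of endothelium were described here in RNA of sorted glomerular endothelial cells, which line the capillaries of the kidney's filter. The genes were matched by symbol, and the set was chosen with earlier results of these data known. It held the selectin genes Sele and Selp and the immunoglobulin-type adhesion genes Icam1, Icam2, Vcam1, Mcam and Alcam. It also held Cd99l2, which encodes a small membrane glycoprotein. All 8 were among the 12911 genes listed for each library, and 8 of 8 passed the filter on low counts that left 12786 tested genes. The libraries came from eNOS-null mice, which lack the endothelial nitric oxide synthase. The cells were sorted for EYFP, a fluorescent protein, from glomeruli collected with magnetic beads. The control group (3 libraries) had no treatment, and the STZ group (3 libraries) had received streptozotocin, a toxin of pancreatic beta cells used as a model of diabetes. Control animals thus carry the same null genotype, and no group with intact eNOS was analysed here. Each library pools the RNA of 4 mice, so the replicate is the pool, and SDs and p-values refer to pools rather than to single animals. The sources used here do not give the age or sex of the animals, the dose of STZ, the time after it or the promoter that drives EYFP.

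A leukocyte leaves the blood in steps. Selectins on the vessel wall bind sugars on the passing cell and let it roll, integrins of the leukocyte then hold on to immunoglobulin-type molecules such as ICAM-1, ICAM-2 and VCAM-1, and molecules at the cell borders, CD99L2 among them, serve the passage between endothelial cells. E-selectin, ICAM-1 and VCAM-1 are classical products of endothelium exposed to inflammatory cytokines, with NF-kappaB as the main inducer, whereas ICAM-2 is present on resting endothelium. In the glomerulus, ICAM-1 is known from studies of diabetic kidney disease, where it takes part in the entry of macrophages.

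Total counts were 4387339 to 8751732.5 in control and 10734376 to 12662371.5 in STZ libraries, so every STZ library was the deeper. The pools also differed by sex-linked RNA along the treatment line. Xist, the RNA of the inactive X chromosome, lay at 690 to 746 CPM in control and at 0.387 to 0.865 CPM in STZ pools, where CPM is the count per 1000000 counts of scaled library size. Every difference between the groups is therefore also one between pools with high and with very low Xist, and treatment and sex cannot be told apart. All 12 endothelial markers were measured, with a summed level of 12019 to 12540 CPM in control and 15303 to 16131 CPM in STZ pools, so all STZ pools were above all control pools, and 5 of 12 were called higher. The 10 markers of glomerular endothelium summed to 8486 to 10009 CPM in control and 18735 to 21291 CPM in STZ pools, with 6 of 10 called higher, Plat and Ehd3 among them. Of 8 venous and peritubular markers 6 were measured, at 1151 to 1815 CPM in control and 993 to 1056 CPM in STZ pools, with 1 called higher and 2 lower, and 5 of 10 proximal tubule markers summed to 159 to 165 and 191 to 252 CPM. The 12 podocyte markers summed to 4912 to 7794 CPM in control and 5205 to 6437 CPM in STZ pools. Much of this was Podxl (means of 3581 and 3708 CPM), which endothelium also expresses, as it does Nes. Podocyte RNA was present too, as the 10 markers without Podxl and Nes summed to 1530 to 3270 CPM in control pools. In STZ pools these 10 summed to 1499 to 2106 CPM. In such bulk samples fewer cells of a type and less RNA per cell cannot be told apart.

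The start regions of the 2 genes that rose, Icam1 and Sele, are shown because they are textbook targets of inflammatory transcription factors. A RefSeq window (GRCm38.p6, the same assembly as mm10) of 250 bases before to 50 after the start was found for 6 of the 8 genes, and Icam2 and Vcam1 were not matched. Capitals mark 3 motifs searched on both strands, chosen with these sequences in view: GGNNNTTCC, a loose form of the Rel or kappaB site, TTCNNNGAA, the site of STAT proteins, and TATAA, the TATA box. Of 32851 windows of this length, 18.5% hold the first, 8.3% the second and 24.9% the third.
Icam1 (chr9:21015690-21015989, plus strand): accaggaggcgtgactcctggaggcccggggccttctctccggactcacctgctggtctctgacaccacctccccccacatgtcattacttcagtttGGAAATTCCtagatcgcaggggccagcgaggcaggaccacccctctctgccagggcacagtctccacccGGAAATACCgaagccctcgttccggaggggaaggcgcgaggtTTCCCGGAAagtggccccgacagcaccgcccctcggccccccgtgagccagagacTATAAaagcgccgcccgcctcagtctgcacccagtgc
Sele (chr1:164047984-164048283, plus strand): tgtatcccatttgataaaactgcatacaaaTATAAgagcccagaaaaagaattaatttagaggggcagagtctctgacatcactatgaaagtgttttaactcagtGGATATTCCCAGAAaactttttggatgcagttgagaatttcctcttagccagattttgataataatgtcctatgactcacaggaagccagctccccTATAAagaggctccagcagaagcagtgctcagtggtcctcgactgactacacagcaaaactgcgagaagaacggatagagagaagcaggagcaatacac

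Both windows hold all 3 motifs. In Icam1 the Rel-type matches begin at -153 (GGAAATTCC) and, on the other strand, at -84, counted from the RefSeq start. The STAT-type match TTCCCGGAA begins at -42, and the TATAA begins at 14, after the start used for this window. The Icam1 start listed with the counts (21015960) lies further downstream, and the TATAA lies before it. Counted from that listed start, all the Icam1 positions would shift. In Sele the Rel-type match GGATATTCC begins at -145 and overlaps the STAT-type match TTCCCAGAA, which begins at -140, and 1 of its 2 TATA boxes begins at -49. The Selp window holds 1 Rel-type match, at -14 on the other strand, and neither of the other motifs. The windows of Mcam, Alcam and Cd99l2 hold none of the 3. A match in these letters is a description of the sequence and not evidence of binding, and a window without a match says nothing about the factor.

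Scaled by transcript length, the 8 genes covered a wide range of levels. Icam2 was highest with a mean over the 6 pools of 287 CPM per kb, which placed it among the top 1.44% of tested genes. Mcam followed at 130 CPM per kb (top 3.93%) and Icam1 at 94.8 CPM per kb (top 6.12%). Cd99l2 (11.5), Vcam1 (8.92) and Alcam (8.64 CPM per kb) lay near the middle of the tested genes. The pools of Vcam1 overlapped those of Cd99l2 and of Alcam, so neighbours in this order do not differ beyond their spread, while every pool of Cd99l2 (10.6 to 12.9) was above every pool of Alcam (5.98 to 10.5 CPM per kb). Sele came next at 3.34 CPM per kb, and Selp was lowest at 0.782 CPM per kb, at 96.2% from the top of the tested genes. The order of Icam1 and Mcam was clear in control pools, where Icam1 spanned 63.7 to 75.4 and Mcam 109 to 130 CPM per kb. In STZ pools Icam1 spanned 115 to 128 and Mcam 127 to 148 CPM per kb, and the ranges overlapped.

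**Figure D1:**
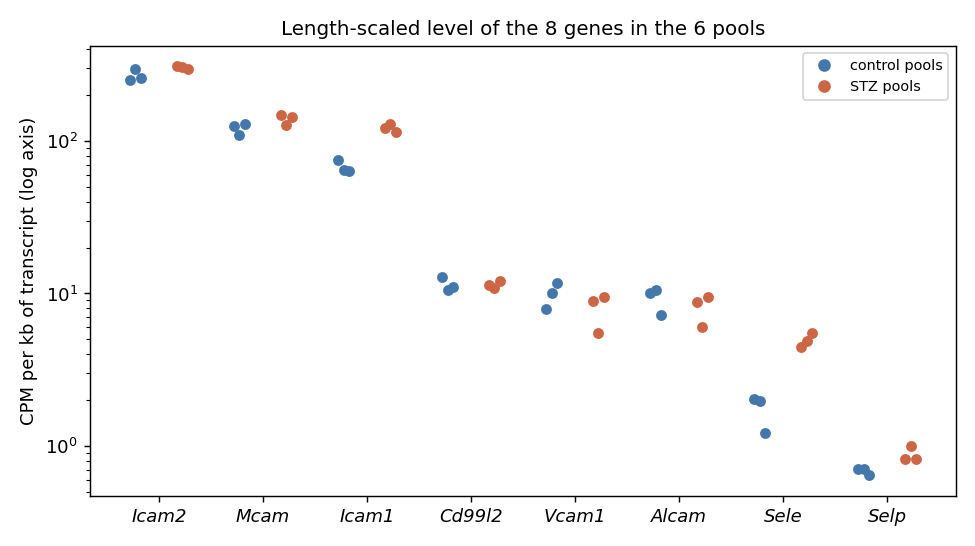
Level of each gene in CPM per kb of transcript (vertical log axis) in the 3 control pools (blue) and 3 STZ pools (orange), with genes ordered by their mean. Icam2, Mcam and Icam1 lie well above the other 5 genes, and Selp is lowest in every pool.

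The comparison of STZ with control asks which genes differ in glomerular endothelium of eNOS-null mice given STZ. Of the 8 adhesion genes, Icam1 and Sele rose and the other 6 did not pass the threshold, with 0 genes lower. The edgeR quasi-likelihood test, at an adjusted p under 0.05, called 9.78% of all tested genes (1251), and 5.47% as higher. That total was 720 without control pool 1 and 662 without STZ pool 1, and Icam1 and Sele were called in both cases. At an unadjusted p under 0.05 the members were again 2 higher and 0 lower, and DESeq2 and limma-voom gave the same counts. The 3 STZ pools lay wholly above the 3 control pools in 4 of the 8 genes (Icam1, Icam2, Sele and Selp), against 15.4% of all tested genes. The median log2 fold change of the 8 genes was 0.19, and that of all tested genes was -0.01.

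**Figure D2:**
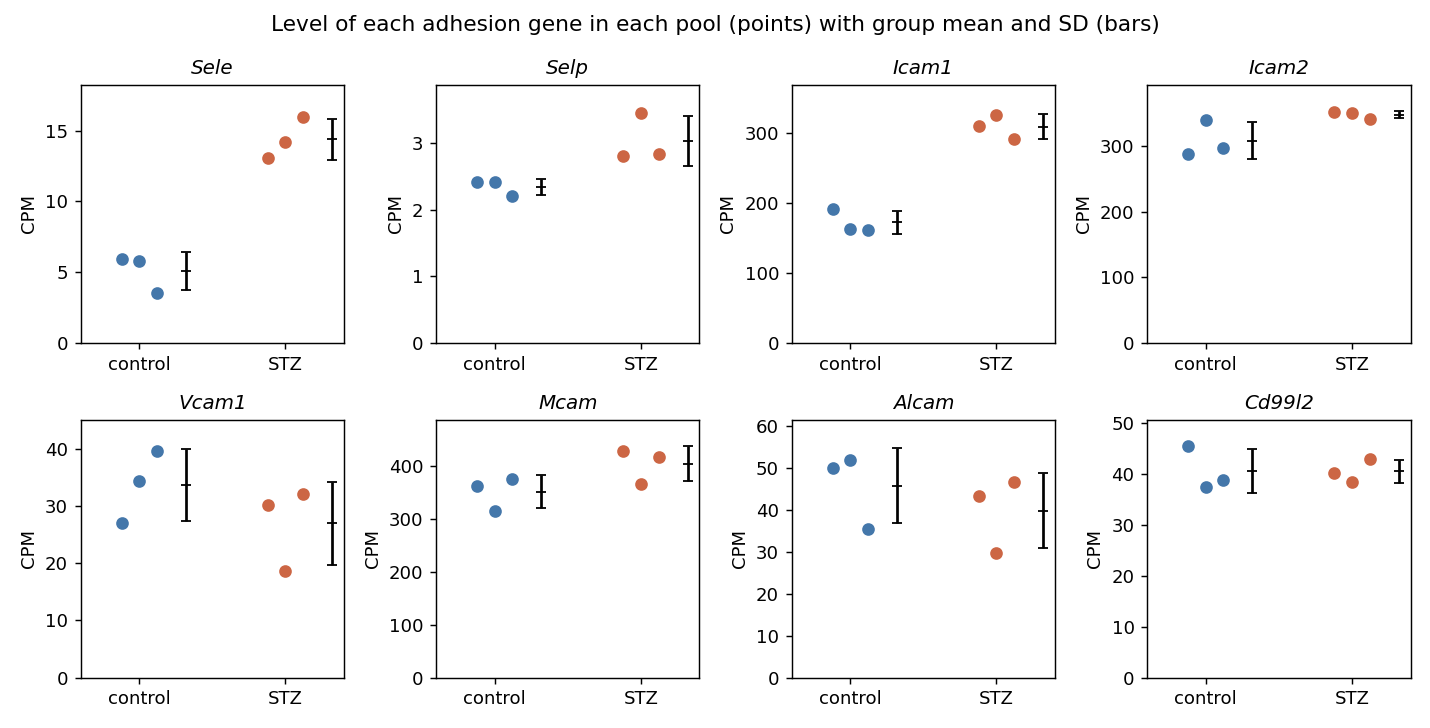
CPM (vertical axis, from 0) of each gene in each pool, with control pools in blue, STZ pools in orange and bars for the mean and SD of 3 pools. Sele and Icam1 are separated by wide gaps between the groups, whereas Vcam1, Mcam, Alcam and Cd99l2 overlap.

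Sele encodes E-selectin, the cytokine-induced selectin of endothelium (NM_011345; mm10 chromosome 1, 164048234 to 164057677, plus strand). The deposited table lists 54, 36 and 16 counts for control pools 1, 2 and 3, against 135, 164 and 197 for STZ pools 1, 2 and 3. In CPM these were 5.93, 5.78 and 3.53 in control and 13.1, 14.2 and 15.9 in STZ. Each STZ pool was above 2 times the highest control pool, and control pool 3 was the lowest. The mean of Sele rose from 5.08 ± 1.34 to 14.4 ± 1.46 CPM (SD over 3 pools), a log2 fold change of 1.46 ± 0.21 (SE; 2.75-fold, 95% interval 2.01 to 3.76; adjusted p = 0.000701 by the edgeR quasi-likelihood test). The counts are few, and the 16 counts of control pool 3 allow 2.02 to 5.74 CPM by an exact Poisson interval, which covers counting error only and ends below every STZ pool.

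Selp encodes P-selectin, which endothelium stores in granules with von Willebrand factor and which platelets carry as well (NM_011347; mm10 chromosome 1, 164115264 to 164150026, plus strand). It had 22, 15 and 10 counts in control pools and 29, 40 and 35 in STZ pools. This was 2.42, 2.41 and 2.21 CPM in control and 2.80, 3.46 and 2.83 CPM in STZ. The groups did not overlap, although the counting interval of every pool except STZ pool 2 reached into the other group. The log2 fold change was 0.36 ± 0.28 (SE, adjusted p = 0.474 by edgeR), with a 95% interval of 0.849-fold to 1.94-fold that does not reach the fold of Sele. The gene lies 57586 bases beyond Sele.

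Icam1 encodes ICAM-1, the counter-receptor of the leukocyte integrins LFA-1 and Mac-1 (NM_010493; mm10 chromosome 9, 21015960 to 21028796, plus strand). Counts were 1743, 1018 and 732 in control and 3210, 3770 and 3594 in STZ pools. The CPM values were 192, 164 and 162 in control and 310, 326 and 291 in STZ. All STZ pools stood well above the highest control pool, and the pools of each group lay close together. Its mean rose from 172 ± 16.7 to 309 ± 17.6 CPM (SD over 3 pools), a log2 fold change of 0.84 ± 0.10 (SE; 1.79-fold, 95% interval 1.55 to 2.07; adjusted p = 0.000138 by edgeR). By p-value it ranked 83 among all tested genes, and Sele ranked 166.

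Icam2 encodes ICAM-2, a second ligand of LFA-1 that resting endothelium carries (NM_010494; mm10 chromosome 11, 106377656 to 106382641, minus strand). It lay at 287, 340 and 297 CPM in control pools and at 352, 349 and 341 CPM in STZ pools. The groups did not overlap, by a margin of under 2 CPM between control pool 2 and STZ pool 3. The log2 fold change was 0.18 ± 0.09 (SE, adjusted p = 0.275 by edgeR), and the 95% interval of 0.982-fold to 1.30-fold ends below that of Icam1. STZ pools were nearly alike, with a coefficient of variation of 1.67% against 9.06% in control pools.

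Vcam1 encodes VCAM-1, the ligand of the integrin VLA-4 (NM_011693; mm10 chromosome 3, 116110020 to 116129688, minus strand). It was not among the genes that rose: its levels were 27.0, 34.4 and 39.5 CPM in control pools and 30.2, 18.7 and 32.1 CPM in STZ pools. The groups overlapped, and STZ pool 2 was the lowest of all. The log2 fold change was -0.30 ± 0.21 (SE, adjusted p = 0.438 by edgeR), with a 95% interval of 0.579-fold to 1.13-fold, which lies wholly below the intervals of Icam1 and Sele. Without STZ pool 2 it was -0.09 (adjusted p = 0.776 by edgeR). VCAM-1 is also made by mesangial and parietal epithelial cells of the glomerulus. The summed level of 14 mesangial and mural markers was 1550 to 1683 CPM in control and 642 to 1237 CPM in STZ pools, lowest in STZ pool 2. By edgeR 4 of the 14 were called lower, the pericyte gene Rgs5 among them (-1.13 ± 0.13), and none higher (0 also at an unadjusted p under 0.05, by DESeq2 and by limma-voom). Of the 10 parietal epithelial markers 6 were measured, with a sum of 51.5 to 71.3 CPM in control and 37.7 to 53.2 CPM in STZ, again lowest in STZ pool 2. Control pool 3, the highest in Vcam1, had the lowest control sum of both lists. Their part in the Vcam1 values was not tested.

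Mcam encodes MCAM (CD146), an adhesion molecule of endothelial junctions and mural cells (NM_023061; mm10 chromosome 9, 44134658 to 44142726, plus strand). It had the highest mean CPM of the 8 before scaling by length, with 362, 315 and 375 CPM in control and 428, 366 and 417 CPM in STZ pools. The lowest STZ pool lay below the highest control pool. The log2 fold change was 0.20 ± 0.10 (SE, adjusted p = 0.246 by edgeR), with a 95% interval of 0.988-fold to 1.34-fold.

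Alcam encodes ALCAM (CD166), which binds CD6 of T cells and also itself on neighbouring cells (NM_009655; mm10 chromosome 16, 52248996 to 52452997, minus strand). It lay at 50.0, 51.9 and 35.6 CPM in control pools and at 43.3, 29.7 and 46.7 CPM in STZ pools. Pools within a group differed more than the groups did, and the low ones were control pool 3 and STZ pool 2. The log2 fold change was -0.21 ± 0.19 (SE, adjusted p = 0.565 by edgeR). Ordered by Alcam, the 6 pools fell in the same order as by the summed level of 10 podocyte markers, from STZ pool 2 (29.7 CPM Alcam, 1499 CPM markers) over control pool 3 (35.6 and 1530 CPM) to control pool 2 (51.9 and 3270 CPM). The podocyte markers Podxl and Nes, which endothelium also expresses, were left out of that sum, a choice made after the values were seen. With all 12 markers the order did not match: control pool 3 had the lowest sum (4912 CPM) and STZ pool 2 the next (5205 CPM). By edgeR 0 of the 12 podocyte markers were called, as by DESeq2 and limma-voom, while 2 were lower at an unadjusted p under 0.05 and the list median was -0.62. The part of podocyte RNA in the Alcam values was not tested.

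**Figure D3:**
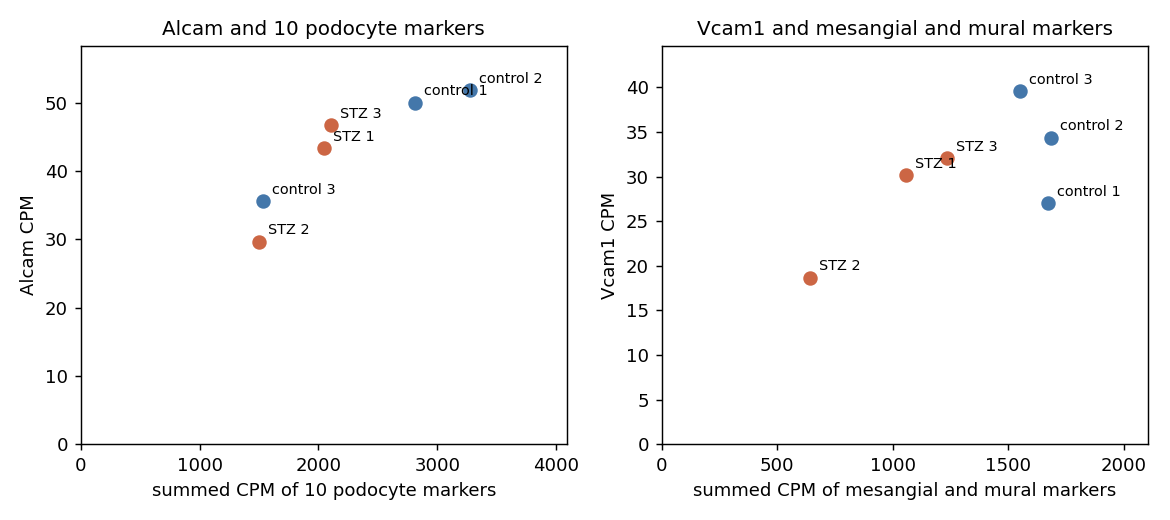
Alcam CPM against the summed CPM of 10 podocyte markers (left) and Vcam1 CPM against the summed CPM of 14 mesangial and mural markers (right), 1 point per pool, control pools in blue and STZ pools in orange. Alcam and this 10-marker sum, chosen after the values were seen, put the 6 pools in the same order, which the sum of all 12 markers did not, and STZ pool 2 is lowest for Vcam1 and for the mesangial sum.

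Cd99l2 encodes a relative of CD99 at endothelial borders that serves the passage of neutrophils (NM_138309; mm10 chromosome X, 71420060 to 71492849, minus strand). With 45.5, 37.4 and 38.7 CPM in control and 40.1, 38.4 and 42.9 CPM in STZ pools, the groups overlapped and their means were 40.5 and 40.5 CPM. The log2 fold change was -0.01 ± 0.11 (SE, adjusted p = 0.977 by edgeR), and the 95% interval ran from 0.839-fold to 1.18-fold. It is the only X-linked gene of the 8 and the only one with a fractional count (413.5 in control pool 1 and 444.5 in STZ pool 2), having 2 listed transcripts. Antisense genes overlap Icam1, Vcam1, Selp and Cd99l2 in GENCODE M21, and since no strand setting is given, reads of such partners cannot be told apart from those of the 4 genes.

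**Figure D4:**
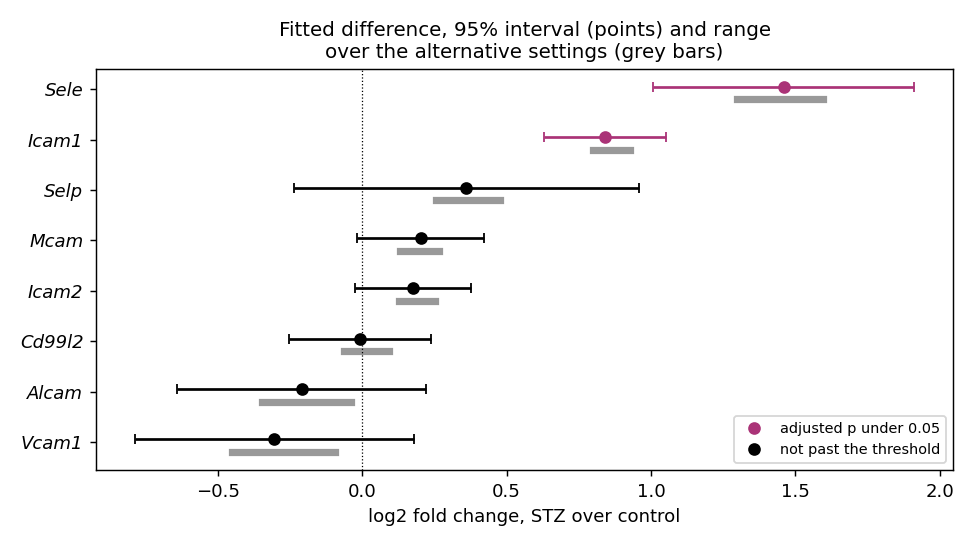
Log2 fold change of STZ over control for each gene (points) with its 95% interval (thin lines), purple where the adjusted p was under 0.05, and the range over 16 alternative settings (grey bars). Sele and Icam1 lie wholly above 0, and the intervals of the other 6 genes include 0.

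Ratios between members within a library need no scaling between libraries. Per unit of transcript length, the ratio of Icam1 to Icam2 was 0.300, 0.217 and 0.245 in control and 0.396, 0.420 and 0.384 in STZ pools. All STZ ratios were above all control ratios. The ratio of Sele to Selp was 2.54 ± 0.565 in control and 5.66 ± 0.914 in STZ (SD, n = 3 each), without overlap. It rests on only 10 to 40 counts of Selp per library. The ratio of Vcam1 to Icam1 was 0.148 ± 0.0394 in control and 0.0659 ± 0.0206 in STZ, lower in every STZ pool than in any control pool. The ratios of Icam1 to Mcam (0.562 ± 0.0616 and 0.879 ± 0.118) and of Sele to Icam1 (0.0256 ± 0.00601 and 0.0408 ± 0.00609) were higher in every STZ pool. The ratio of Mcam to Alcam, 13.6 ± 3.99 in control and 17.8 ± 3.03 in STZ, overlapped. The other 5 ratios each hold Icam1 or Sele, the genes called higher, so they partly restate those rises. For 6 ratios computed, an exact two-sided permutation test gave p = 0.1 (adjusted 0.12) in 5 and p = 0.3 in the Mcam to Alcam ratio, where 0.1 is the smallest p that 3 against 3 pools allow. Icam1 made up 13.8 ± 1.50% of the summed length-scaled level of the 8 genes in control and 20.3 ± 1.31% in STZ pools (SD, n = 3 each).

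Among the other tested genes with a mean of at least 8 CPM, likeness to a member was measured as the root-mean-square distance between centred log2 CPM profiles over the 6 pools. The nearest profiles to Icam1 were those of Rin2, a Rab and Ras interactor (distance 0.029), Baiap2 (0.037) and Col24a1 (0.051). These genes had log2 fold changes of 0.82, 0.77 and 0.78, near that of Icam1 (0.84). Such likeness to Icam1 largely restates the group difference. Those nearest to Sele were Per2, a circadian clock gene (0.133), Xdh, which encodes xanthine dehydrogenase (0.137), and Arc (0.149). Sele passed the limit of 8 CPM only through its STZ pools (mean 5.08 CPM in control and 14.4 CPM in STZ). Per2, Xdh and Arc had log2 fold changes of 1.37, 1.35 and 1.23, near that of Sele (1.46). Their likeness to Sele thus largely restates the group difference. Alcam was nearest to Net1 (0.063), Colec12 (0.064) and Tyro3 (0.064), and Vcam1 to Col12a1 (0.096), Spire1 (0.111) and Tpm2 (0.114). Selp, below 8 CPM, was not matched. The flat profiles of Icam2, Mcam and Cd99l2 had many near neighbours, with 954, 376 and 747 of 10106 candidates within 0.1, against 31 for Icam1 and 0 for Sele. Mcam was nearest to Ccdc47 (0.021) and Cd99l2 to Whsc1l1 (0.025).

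Around these 8 genes, 9 lists of the adhesion cascade named 141 genes. Of these 122 were tested, and 22 were called higher and 7 lower. That is 23.8% called, against 9.78% of all tested genes, and single lists lay between 8.33% (counter-receptors) and 40% (repressors). The lists were chosen with earlier results of these data known, so these shares are not an independent comparison. In place of 29 list genes, 18 were called without STZ pool 1 and 19 without STZ pool 3. Of 12 leukocyte counter-receptors 1 was called (list median 0.09), Itga4, the alpha chain of VLA-4, which fell from 124 ± 21.1 to 61.2 ± 11.7 CPM (SD, n = 3 each; log2 fold change -1.02 ± 0.16, adjusted p = 0.00360 by edgeR). The genes of the LFA-1 chains were low, with Itgal at 21.9 and 21.7 CPM and Itgb2 at 14.7 and 16.3 CPM in control and STZ. Of 20 leukocyte markers 11 were measured, with a sum of 143 to 271 CPM in control and 202 to 221 CPM in STZ pools. The sums overlapped, while single markers went both ways, with 2 called lower, the B cell gene Cd79a (-1.71 ± 0.31) among them, and Fcer1g called higher (0.98 ± 0.24). By edgeR the adjusted p of Fcer1g was 0.117 without control pool 1, 0.0738 without STZ pool 1, 0.0552 without STZ pool 2 and 0.0920 after thinning every library to the depth of the smallest. Ptprc, the common leukocyte antigen, had 44.9 ± 2.98 CPM in control and 35.8 ± 5.07 CPM in STZ (adjusted p = 0.125 by edgeR). The part of leukocyte RNA in Icam1, which leukocytes also express, was not tested.

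At the receiving side of ICAM-1, where the molecule is anchored to a cup of actin, 5 of 16 genes of docking and cytoplasmic anchorage were called higher and the other 11 were not called (list median 0.11). Arhgef26, which encodes the RhoG exchange factor SGEF that acts beneath clustered ICAM-1, rose from 95 ± 7.02 to 241 ± 12.9 CPM (1.34 ± 0.09, adjusted p = 1.97e-06 by edgeR). Rhog, the gene of RhoG itself, rose by 0.52 ± 0.12 on the log2 scale, a call lost without STZ pool 1 (adjusted p = 0.0620 by edgeR). Msn, the X-linked gene of the membrane linker moesin (0.35 ± 0.10), and Ctnna1 (0.33 ± 0.09) were called too. Msn was no longer called without control pool 1 (adjusted p = 0.146 by edgeR), control pool 2 (0.0588), STZ pool 1 (0.160), STZ pool 3 (0.123) or with the replicate number as a block (0.0902). Ctnna1 was no longer called without control pool 1 (0.126), control pool 3 (0.0618), STZ pool 1 (0.194), STZ pool 3 (0.169), with the block (0.110), with upper-quartile normalization (0.0538) or after thinning (0.0555). Of 13 junctional and transmigration partners, Esam (0.58 ± 0.09) and the vascular cadherin gene Cdh5 (0.47 ± 0.10) rose and the other 11 did not pass (median 0.26). Both Esam and Cdh5 also belong to the 12 endothelial markers, whose sum was higher in every STZ pool.

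Among selectin-ligand scaffolds and glycan enzymes, 1 of 11 genes was called higher and 2 lower (median 0.05). Gcnt1, whose enzyme builds the branched sugar chains that carry selectin ligands, fell from 335 ± 23.7 to 241 ± 11.1 CPM (-0.48 ± 0.09, adjusted p = 0.00500 by edgeR). Emcn, the endothelial sialomucin endomucin, is also among the endothelial markers and was called higher (0.42 ± 0.11). Its adjusted p by edgeR was 0.0612 without control pool 1, 0.182 without STZ pool 1 and 0.0995 without STZ pool 3. It was 0.0635 with the block and 0.0512 without robust fitting. Ndst1, a heparan sulfate enzyme, was called lower (-0.37 ± 0.11), but without any 1 library its adjusted p by edgeR was 0.0553 to 0.164, and it was 0.0591 with the block, 0.1 after thinning and 0.0602 by DESeq2. The list of storage granules had 2 of 12 genes called, both higher (median -0.04). Myrip, which tethers Weibel-Palade bodies to actin, rose from 26.1 ± 1.89 to 53.4 ± 3.23 CPM (1.04 ± 0.11). Vamp3, a vesicle fusion gene, was the other (0.35 ± 0.09), with an adjusted p by edgeR of 0.0558 without control pool 1, 0.0525 without control pool 2, 0.121 without STZ pool 1 and 0.0552 without STZ pool 3. Vwf, the main cargo stored with P-selectin, had 11.4 ± 2.14 and 11.9 ± 1.01 CPM (SD, n = 3 each). Of 9 sheddases and inhibitors, 1 was called (median 0.11), the metalloprotease inhibitor gene Timp3, higher by 0.49 ± 0.10, a call lost without STZ pool 1 (adjusted p = 0.0557 by edgeR) or STZ pool 3 (0.0552).

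Regulators of these genes moved in both directions. Of 26 cytokine receptors and NF-kappaB genes, 3 were called higher and 3 lower (median -0.06). The interleukin-4 receptor gene Il4ra rose from 125 ± 7.70 to 264 ± 15.2 CPM (1.07 ± 0.09), and Nfkbia, which encodes an inhibitor of NF-kappaB, rose by 0.69 ± 0.09. Nfkb2 (-0.71 ± 0.12) and Relb (-0.69 ± 0.12), the subunits of the non-canonical pathway, fell. The other 2 calls were Ikbkb, a kinase gene (0.58 ± 0.10), and the interferon receptor gene Ifngr2 (-0.43 ± 0.10), the latter lost without control pool 1 (adjusted p = 0.104 by edgeR), STZ pool 1 (0.0516), STZ pool 2 (0.0530) or STZ pool 3 (0.0715), or after thinning (0.121). The canonical subunit genes Nfkb1 (-0.00 ± 0.08) and Rela (0.04 ± 0.09), did not pass. Of 15 repressors of endothelial activation, 6 were called higher and the other 9 were not called (median 0.45), and those higher included Tsc22d3, the X-linked gene of the glucocorticoid-induced leucine zipper (0.86 ± 0.09), Socs3 (1.56 ± 0.18), Dusp1 (0.53 ± 0.10) and Nr4a1 (0.56 ± 0.11). Klf2, a flow-induced repressor, varied widely between pools (1208 ± 412 CPM in control and 1368 ± 572 CPM in STZ, SD, n = 3 each). Of 16 chemokine and colony factor genes only 8 were measured (median 0.24). Among these, Cxcl16, a membrane-bound chemokine, rose (1.32 ± 0.12) and Cxcl12 fell (-1.07 ± 0.18). Cx3cl1, the other membrane-bound chemokine of endothelium, was called higher (0.41 ± 0.11), but not when control pool 2 was left out (adjusted p = 0.0565 by edgeR), nor control pool 3 (0.0543), STZ pool 1 (0.111) or STZ pool 2 (0.0594).

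**Figure D5:**
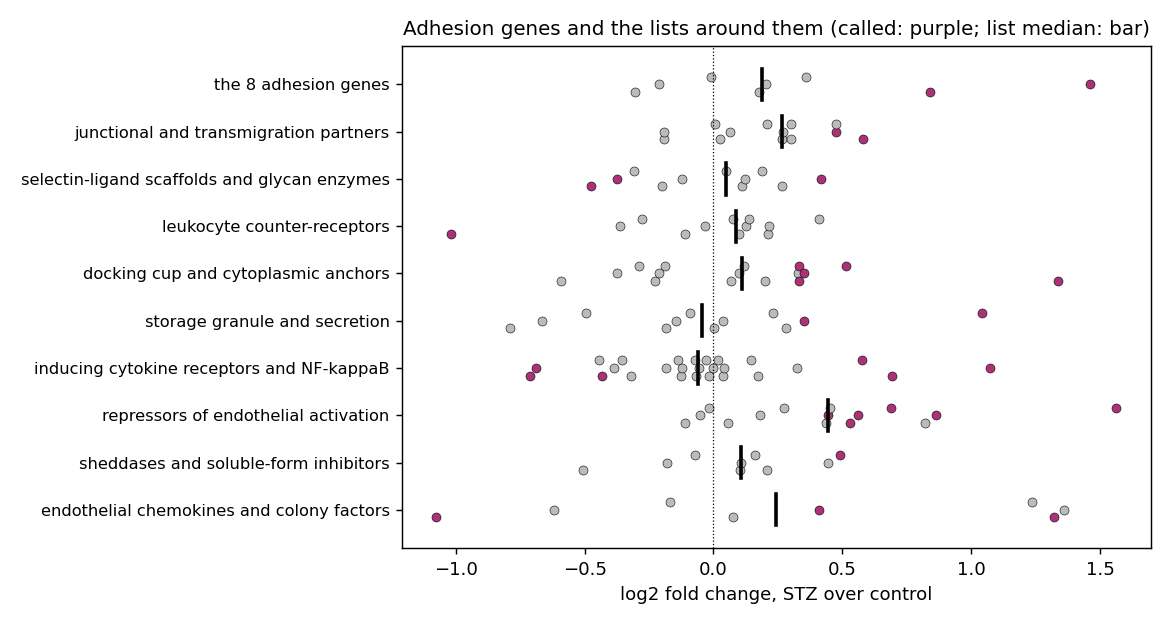
Log2 fold change of STZ over control (horizontal axis) of every tested gene in the adhesion set and the 9 lists around it, 1 point per gene, purple where called and grey otherwise, with the list median as a bar. Sele and Icam1 stand apart from the other 6 adhesion genes, and called genes lie on both sides of 0 in the NF-kappaB and chemokine lists.

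Some RNA of blood cells also moved with the groups. Of 12 platelet and erythroid markers 6 were measured, with a sum of 38.4 to 72.9 CPM in control and 145 to 226 CPM in STZ pools, and 4 were called higher. Itga2b was the only platelet gene among those measured, and the rest were erythroid. The haemoglobin gene Hbb-bs rose from 2.66 ± 1.08 to 17.6 ± 3.99 CPM (SD, n = 3 each). Itga2b, the platelet integrin chain, had 14.3 ± 2.05 and 21.1 ± 1.48 CPM (0.54 ± 0.15, adjusted p = 0.0373 by edgeR), a call lost without any 1 library except control pool 1, with an adjusted p of 0.0737 to 0.108, and with the replicate number as a block (0.0532). The part of platelet RNA in the Selp values was not tested.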

How the data were processed

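The deposited files hold 1 value per gene and library, treated as an expected count (estimated count) since all values are multiples of 0.5. The submitters' processing notes name mm10 and limma. Aligner, counter, strand setting and gene filter: not given in the sources used here. The 34 blank cells were read as 0, values were rounded, and 1 was added to the listed starts. Each gene was fitted in edgeR (version 4.0.16, R 4.3.3), after filterByExpr and TMM, by the robust quasi-likelihood F test (two-sided) over 3 control and 3 STZ libraries, with Benjamini-Hochberg adjustment over 12786 genes and a threshold of 0.05. CPM use TMM-scaled library sizes. The fit was tried on simulated counts with the same dispersion for every gene, and its error rates in the real pools were not tested. Likeness used log2 CPM with 0.5 added. Alternatives were DESeq2 1.42.0, limma-voom (limma 3.58.1), other scalings and filters, thinning, a replicate block and leaving out each library. The members and lists were chosen with earlier results of these data known. Named genes were the 8 members, up to 4 called genes per pathway list ranked by p, the 2 most abundant genes of a marker list with any called gene needed beside a result, sex-linked genes and the 3 nearest profiles per member. Itgal, Itgb2, Vwf, Ikbkb, Ifngr2, Nfkb1, Rela and Klf2 fall outside this rule and were chosen after their values were seen. Library depth was 4387339 to 12662371.5 counts, and pools of a group differed by more than counting error (chi-square per degree of freedom 3.95 to 11.8). Results for some genes that the rule names are not reported here.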

Additional observations from a re-analysis of the deposited data

How the results depend on the processing

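Icam1 and Sele were called higher under all 16 alternatives, Icam1 at a log2 fold change of 0.80 to 0.93 and Sele at 1.30 to 1.60, with the largest adjusted p at 0.00110 and 0.00530. The other 6 genes were called under none of the alternatives that gave an adjusted p, which was 15 for Selp (DESeq2 gave it none) and 16 for the rest. Cd99l2 ran from -0.0631 to 0.0912 without 1 library, and turned positive without control pool 1 (0.0912) or STZ pool 2 (0.0278). Without 1 library all called genes numbered 662 (without STZ pool 1) to 1291, the higher ones 426 to 695 and the lower ones 236 to 596, with totals of 720 without control pool 1 and 355 lower genes without STZ pool 3. At a threshold of 0.10, 866 genes were lower. The lists around the members held 29 called genes, and refits without 1 library called 18 (without STZ pool 1) to 33 genes of the same lists, with 19 without STZ pool 3. Each such refit held fewer libraries, and the cause of these changes was not tested. Of 14 mesangial and mural markers 4 were lower by edgeR, 7 by DESeq2 and 9 by limma-voom. The median of the storage granule list turned to 0.0185 after thinning, and that of the selectin-ligand list to -0.0537 without control pool 3. Same-numbered pools deviated together at correlations of 0.125, -0.131 and -0.164. Differently numbered pools ran from -0.250 (control pool 1 with STZ pool 2) to 0.303 (control pool 3 with STZ pool 2). With so few pools these values cannot settle whether the numbers pair the pools. With the number as a replicate block 1001 genes were called, Icam1 at 0.85 (adjusted p = 0.000504) and Sele at 1.47 (0.00204) among them. Selp, with 10 to 40 counts a library, is limited by depth.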
